A study of Macaca mulatta with 24 samples.

Results

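Transcript levels in the parvocellular layers of the macaque lateral geniculate nucleus (LGN) were compared between layers with crossed input, from the eye of the opposite side, and layers with uncrossed input, from the eye of the same side. The parvocellular arrays were taken by layer number from the labels: layers 4 and 6 of each LGN are crossed and layers 3 and 5 uncrossed, which gave 8 crossed and 8 uncrossed arrays, 16 of the 24 arrays in all. The other 8 arrays are magnocellular, from layers 1 (crossed) and 2 (uncrossed). Both rhesus monkeys had lost pattern vision in the left eye from birth, and no undeprived animal was arrayed. In 1 animal an opaque contact lens covered the eye for 2 months, and in the other the lids were closed by tarsorrhaphy for 4 months, so that animal, duration and method cannot be told apart. Each array holds 1 layer of 1 LGN, cut out by laser capture microdissection from several sections, pooled and amplified in repeated rounds, with the koniocellular zones between the layers left out.

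Axons from the nasal retina cross at the optic chiasm and axons from the temporal retina do not, and in primates the terminals of the eyes stay apart in alternating layers of the LGN. Parvocellular neurons are small relay cells that carry color and fine form to the visual cortex. The sorting of the eyes is known to use guidance molecules such as the ephrins and their Eph receptors, activity of the retina, and removal of synapses. Many of these act in retinal axons, whose cell bodies and most of whose mRNA lie in the retina and not in the captured tissue.

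The deprived eye drives the uncrossed layers of the LGN on its own side (ipsilateral) and the crossed layers of the LGN on the other side (contralateral). Within an LGN, input and deprivation therefore differed together, with opposite pairing on the sides, so that the input effect is fixed by the deprivation effects of the sides: it equals 0.5 times the contralateral minus the ipsilateral effect. In each layer pair (inner, 3 with 4; outer, 5 with 6) the crossed layer is also the more dorsal one, and input and depth cannot be told apart. As each sample pools many cells, a lower signal from fewer cells of a type and one from less RNA per cell cannot be told apart.

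Array-wide values overlapped between the input groups. The share of probe sets with a signal of 100 or more was 40.6% at the lowest, 43.7% at the median and 52.9% at the highest in crossed arrays, and 40.7%, 43.3% and 53.0% in uncrossed arrays. The arrays with the highest shares, layers 4 and 3 of the contralateral LGN at 2 months, fell in different input groups. The ratio of the 3′ to the 5′ GAPDH probe set, a sign of RNA integrity, ran from 2.65 to 7.88 in crossed and from 1.97 to 7.35 in uncrossed arrays. Neither value nor the median log2 signal differed by input in an exact permutation test (two-sided, 1296 relabelings within LGNs, adjusted p = 0.915 for each of the 3 values).

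No transcript passed the test for crossed against uncrossed input. Of 37623 probe sets tested in limma, with the LGN and deprivation as terms, 0 (0%) had an adjusted p under 0.05, and the smallest adjusted p was 1.00. Without adjustment 951 probe sets (2.53%) lay under 0.05, against the 5% that evenly spread p-values would give, with 459 (1.22%) higher and 492 (1.31%) lower in crossed layers. In the same fit, with the same arrays and standard errors, deprived and nondeprived layers differed at an adjusted p under 0.05 in 353 probe sets (0.938%; 216 higher and 137 lower in deprived layers), and 4175 (11.1%) lay under 0.05 unadjusted. The deprivation count depended on the processing, with 17 after scaling to the same median and 1 without the trend of the spread, while the count for input was 0 under all 34 alternatives.

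**Figure D1:**
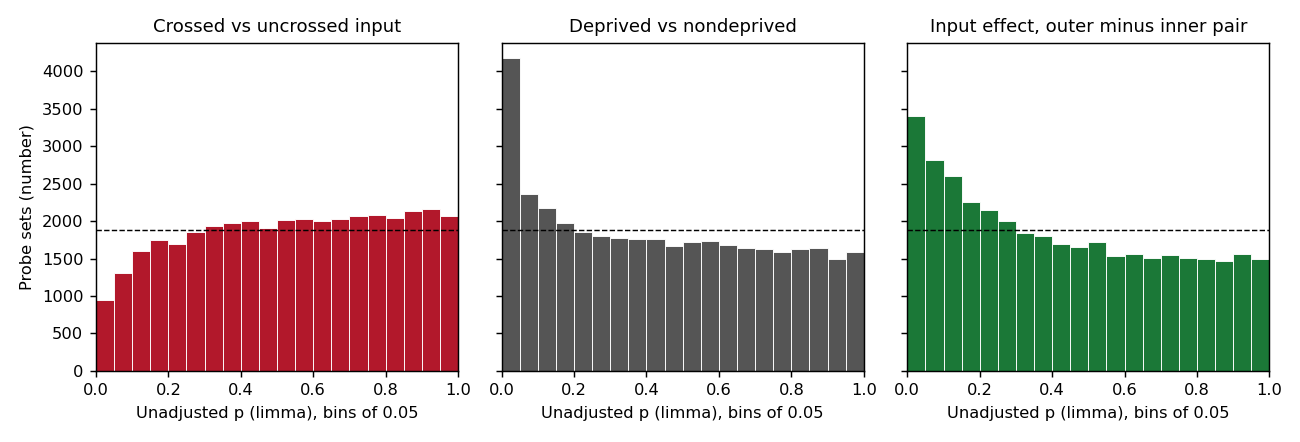
Number of probe sets (vertical axis) by unadjusted limma p (horizontal axis, bins of 0.05) for crossed against uncrossed input, for deprivation in the same fit, and for the difference of the input effect between the outer and the inner layer pair; the dashed line is an even spread over the bins. The bin from 0 to 0.05 holds 951 probe sets for input, under the line, 4175 for deprivation and 3399 for the layer pair difference.

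The size of the confidence intervals was computed next. In the 23316 probe sets with a mean signal of at least 100, the median standard error of the input effect was 0.165 (log2), and the median 95% confidence interval reached 0.347 to either side. This interval lay within a 2-fold difference in either direction for 22473 of them (96.4%) and within 1.5-fold for 16874 (72.4%). The input estimate exceeded 2-fold in 11 of these probe sets and the deprivation estimate in 82. Estimates over 1.5-fold numbered 171 for input and 808 for deprivation. The intervals measure the spread between layers of 2 animals and 4 LGNs, and the input effect averages both layer pairs. In 1 of 37623 probe sets (0.00266%) the input groups did not overlap, and this probe set, MmugDNA.30935.1.S1_at, singled out after its values were seen, has no gene symbol and signals of 50.1 to 103 in crossed and 16.6 to 44.7 in uncrossed layers.

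A fold rule was modelled on the study's methods, which use the change calls of the array software. Here those calls were replaced by whether a ratio was above or below 1, with 6 or more of the 8 layer pairs in one direction and an average fold of 1.7 or more. No p-value comes with it. This rule selected 1003 probe sets by input (2.67%; 553 higher and 450 lower in crossed layers) and 1295 by deprivation (3.44%). Of the 1003, 978 had a mean signal under 100. With signals under 50 set to 50, the rule left 7 probe sets by input and 220 by deprivation.

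The genes below were ranked by the smallest unadjusted p, since none passed the threshold, among those that kept 1 direction over all 4 LGNs and reached a mean of 100 or more where they were higher. All 20 had an adjusted p of 1.00 (limma), and in all 20 the signals of crossed and uncrossed layers overlapped. Their values are a description.

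Among the 10 genes with higher means in crossed layers were receptors and transcriptional regulators. GABRA4 encodes the α4 subunit of the GABA-A receptor, which in relay neurons of the thalamus serves tonic inhibition. Its signal was 503 at the lowest, 897 at the median and 3413 at the highest in crossed layers, and 375, 602 and 1417 in uncrossed layers (log2 difference 0.86 ± 0.25, SE; higher in 7 of 8 pairs). Much of the GABRA4 difference came from the ipsilateral LGN at 4 months, where the log2 difference was 2.17, against 0.21 to 0.80 in the other 3 LGNs. IL12RB2, a chain of the interleukin 12 receptor, ran from 1042 to 4329 around a median of 1735 in crossed layers and from 970 to 2407 around 1458 in uncrossed layers (0.42 ± 0.12, higher in 8 of 8 pairs). Its log2 difference was 0.94 in the ipsilateral LGN at 4 months, against 0.14 to 0.32 in the other 3 LGNs. Both other probe sets of IL12RB2 lay in the same direction, at 0.81 ± 0.36 and 0.72 ± 0.25. NR2C2, an orphan nuclear receptor, had medians of 176 and 127 (0.74 ± 0.22), and TLE3, a corepressor of the Groucho family, medians of 296 and 231 (0.48 ± 0.15). Of the other TLE3 probe sets, a dimmer one gave 0.48 ± 0.22 and a brighter one lay the other way, at -0.22 ± 0.14.

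RB1, the retinoblastoma tumor suppressor, had the smallest p among genes meeting the rule, and its probe sets disagreed. On MmugDNA.12466.1.S1_at it ran from 94.5 to 303 in crossed and from 23.7 to 165 in uncrossed layers (1.25 ± 0.31, higher in 8 of 8 pairs). On the brighter MmuSTS.3106.1.S1_at the mean signal was 1663 ± 266 (SD, n = 8) in crossed and 2244 ± 383 in uncrossed layers, a log2 difference of -0.43 ± 0.11. The remaining RB1 probe set gave 0.34 ± 0.20. ATP11A, a phospholipid flippase, showed a like disagreement, with 1.10 ± 0.31 on a dim probe set and -0.04 ± 0.11 on one with a mean signal of 5732. The other genes with higher means in crossed layers were GRTP1 (0.45 ± 0.13), EFHD2, a calcium-binding protein (0.37 ± 0.12), KLHL12, an adaptor of a ubiquitin ligase (0.63 ± 0.21), and SVEP1, an extracellular adhesion protein. SVEP1 was under 50 in 6 of 8 uncrossed arrays, and its difference of 1.03 ± 0.34 became 0.40 ± 0.20 with signals under 50 set to 50. A brighter SVEP1 probe set gave -0.06 ± 0.21.

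The 10 genes with lower means in crossed layers included several of high signal. SELENOF, a selenoprotein of the endoplasmic reticulum, was at 4881, 6136 and 7526 (lowest, median, highest) in crossed and at 6305, 7507 and 8550 in uncrossed layers (-0.31 ± 0.10, lower in 8 of 8 pairs). LOC696878 differed by -0.33 ± 0.11, from medians of 7775 and 9816, while 5 other probe sets of that gene lay between -0.17 and 0.22. DPM1, a mannose synthase of protein glycosylation, had medians of 751 and 1190 (-0.47 ± 0.15, lower in 8 of 8 pairs), but gave -0.04 ± 0.14 on its other probe set. RFTN2, a lipid raft protein, had medians of 3388 and 4221 (-0.33 ± 0.11, lower in 8 of 8 pairs). DACH1, a transcription factor, had medians of 183 and 260 (-0.62 ± 0.18), but its other probe sets gave 0.30 ± 0.26 and 0.12 ± 0.70. PDE12, a mitochondrial phosphodiesterase, was lower in 5 of 8 pairs (-0.43 ± 0.14), and its 3 other probe sets lay at 0.03 to 0.21. The remaining genes were KLHL20, a ubiquitin ligase adaptor (-0.51 ± 0.17, against 0.16 ± 0.15 on a brighter probe set), THSD7A (-0.47 ± 0.14), CIMIP2B and LOC700227. CIMIP2B and LOC700227 met the rule through their uncrossed layers (medians 91.0 and 110), and each was under 50 in 4 of 8 crossed arrays. Their differences were -1.18 ± 0.36 and -1.06 ± 0.31, and -0.65 and -0.82 with signals under 50 set to 50. The 2 other probe sets of LOC700227 gave 0.11 and 0.08.

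**Figure D2:**
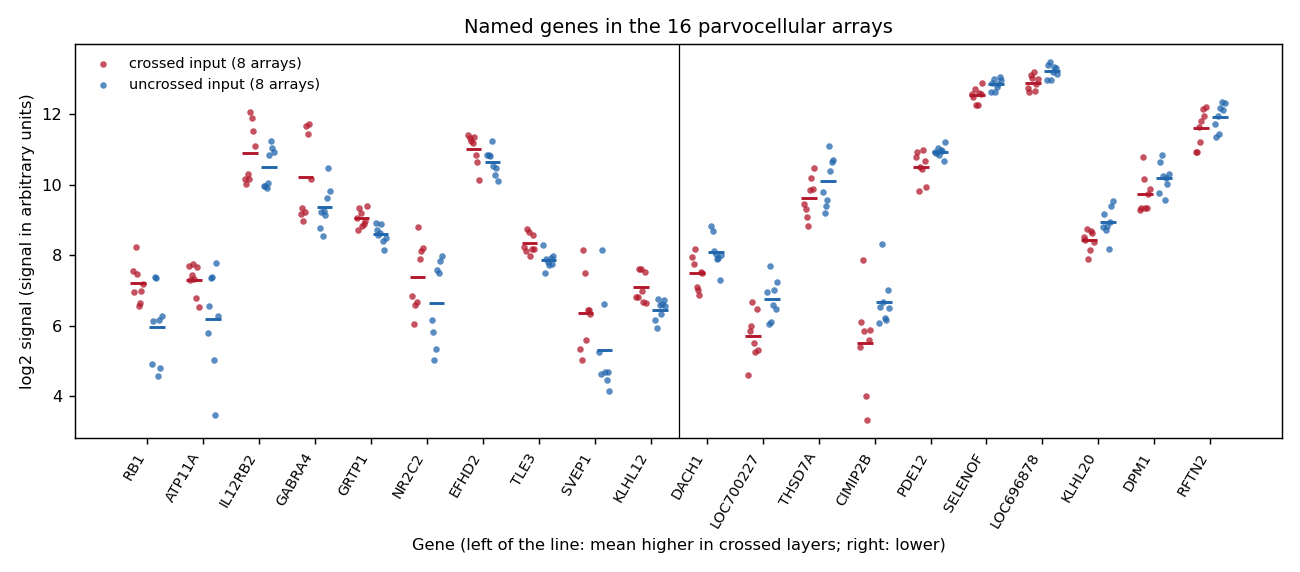
Log2 signal (arbitrary units; vertical axis) of the 20 named genes in each of the 16 parvocellular arrays, with crossed layers in red and uncrossed layers in blue; each point is 1 array and each bar the mean of 8. The colors overlap for all 20 genes, and the crossed points of GABRA4 spread from 503 to 3413 in signal.

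The magnocellular arrays were not used to choose these genes. Between layers 1 and 2, 8 of the 20 genes lay in the same direction as in parvocellular layers, against 52.1% of all probe sets tested. IL12RB2 and NR2C2 lay the other way, at -1.40 ± 0.36 and -2.26 ± 0.71, both at an adjusted p of 1.00 (limma). Over all probe sets the magnocellular comparison, with 4 crossed and 4 uncrossed arrays, gave 0 adjusted and 1142 unadjusted calls (3.04%) in limma. The array of layer 2 of the ipsilateral LGN at 2 months stood apart, with a GAPDH ratio of 50.8. The directions of the 20 genes above were read with this array kept. Without it the counts were 0 and 1003. Of the unadjusted calls, 468 were higher and 674 lower in crossed layers with this array, and 734 higher and 269 lower without it. These counts depended on single arrays: without layer 1 or layer 2 of the contralateral LGN at 4 months 177 or 178 probe sets passed the adjusted threshold, and with an array left out the unadjusted count ran from 372 to 3462.

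None of the 464 genes tested from 35 lists of pathways and cell types passed the test, genes known for sorting retinal axons among them. Unadjusted, 13 of the 464 (2.80%) lay under 0.05, beside 2.53% of all probe sets, with 8 higher and 5 lower in crossed layers. The 95% interval lay within a 2-fold difference in either direction for 396 of the 464 (85.3%). The median input difference over all probe sets tested was 0.01 on the log2 scale and -0.01 after scaling to the same median, which also turned the sign of the medians given below for early genes, potassium channels, oxidative phosphorylation and glycolysis.

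Of 19 genes for Eph and ephrin signaling, 7 had a higher mean in crossed layers, and the median log2 difference was -0.04. EPHB1 is an Eph receptor known in retinal axons that do not cross. It ran from 572 to 1090 in crossed and from 622 to 1338 in uncrossed layers (-0.26 ± 0.12). EPHB1 was lower in crossed layers in only 2 of 4 LGNs. It also changed with deprivation, by 0.52 at an adjusted p of 0.0485 (limma), in a list that depended on the processing. This deprivation effect was 0.26 contralaterally and 0.78 ipsilaterally. EPHA4 ran from 1801 to 5905 in crossed and from 1233 to 5782 in uncrossed layers (0.17 ± 0.11). Of 34 genes for other guidance cues and receptors, 14 were higher, with a median of -0.05. Among them NRP2, a semaphorin receptor, had signals mostly under 100, from 10.3 to 116 in crossed and from 3.42 to 101 in uncrossed layers (1.75 ± 0.63). SEMA3F, a ligand of NRP2, had medians of 146 and 113 (0.50 ± 0.22). The 13 genes for chiasm crossing and the identity of retinal axons had a median of -0.02, the 7 teneurins, latrophilins and FLRTs one of -0.02, and the 29 cadherins, protocadherins and contactins one of -0.03.

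Genes for the refinement of retinal synapses and early genes were read in the same way. The median was 0.04 for 22 genes of retinal synapse refinement, complement and MHC class I, with 14 higher. Of these 22 genes, 0 lay under an unadjusted p of 0.05 in limma. B2M, the light chain of MHC class I, had means of 10897 in crossed and 11958 in uncrossed layers (-0.15 ± 0.10). The 19 activity-regulated early genes had a median of 0.02, and FOS, an immediate early gene, ran from 485 to 3466 in crossed and from 373 to 2487 in uncrossed layers (0.25 ± 0.16, higher in 6 of 8 pairs).

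Receptors, channels, vesicle proteins and calcium sensors were examined next. Of 9 receptors for GABA and glycine, 2 were higher in crossed layers, and the median was -0.18. Read in each LGN alone, the median ran from -0.17 to 0.14. Beside GABRA4, GLRB, the β subunit of the glycine receptor, ran from 3532 to 7250 in crossed and from 5726 to 7169 in uncrossed layers (-0.27 ± 0.12). The 14 genes of the synaptic vesicle had a median of 0.13, with 10 higher. RAB3A, a small GTPase of synaptic vesicles, had medians of 2585 and 1640 (0.47 ± 0.18), and DNM1, which pinches off endocytic vesicles, of 11694 and 10276 (0.24 ± 0.12). Of 38 potassium channel genes 20 were higher, with a median of 0.00, and KCNAB2, an auxiliary subunit, differed by 0.30 ± 0.13. Of 18 genes for calcium binding, 9 were higher with a median of 0.00, and the calcium sensors NCS1 (0.29 ± 0.10), CALM3 (0.30 ± 0.13) and HPCAL1 (0.35 ± 0.16) had unadjusted p-values under 0.05 with an adjusted p of 1.00 in limma. RAB3A, KCNAB2 and CALM3 each kept 1 direction in only 2 of 4 LGNs. Their deprivation effects were -0.50, -0.48 and -0.34, none at an adjusted p under 0.05 (limma).

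Energy metabolism, structure and peptides completed the lists. The 41 genes of oxidative phosphorylation had a median of 0.02 and the 12 of glycolysis of 0.01. COX7B, a subunit of cytochrome c oxidase, had means of 11058 in crossed and 13360 in uncrossed layers (-0.25 ± 0.11). VCAN, a proteoglycan of the matrix, had medians of 607 and 791 (-0.45 ± 0.18). NPY, a neuropeptide of interneurons, was near background in most arrays, with medians of 9.14 in crossed and 47.2 in uncrossed layers (-1.93 ± 0.81), and a single uncrossed array reached 1457.

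**Figure D3:**
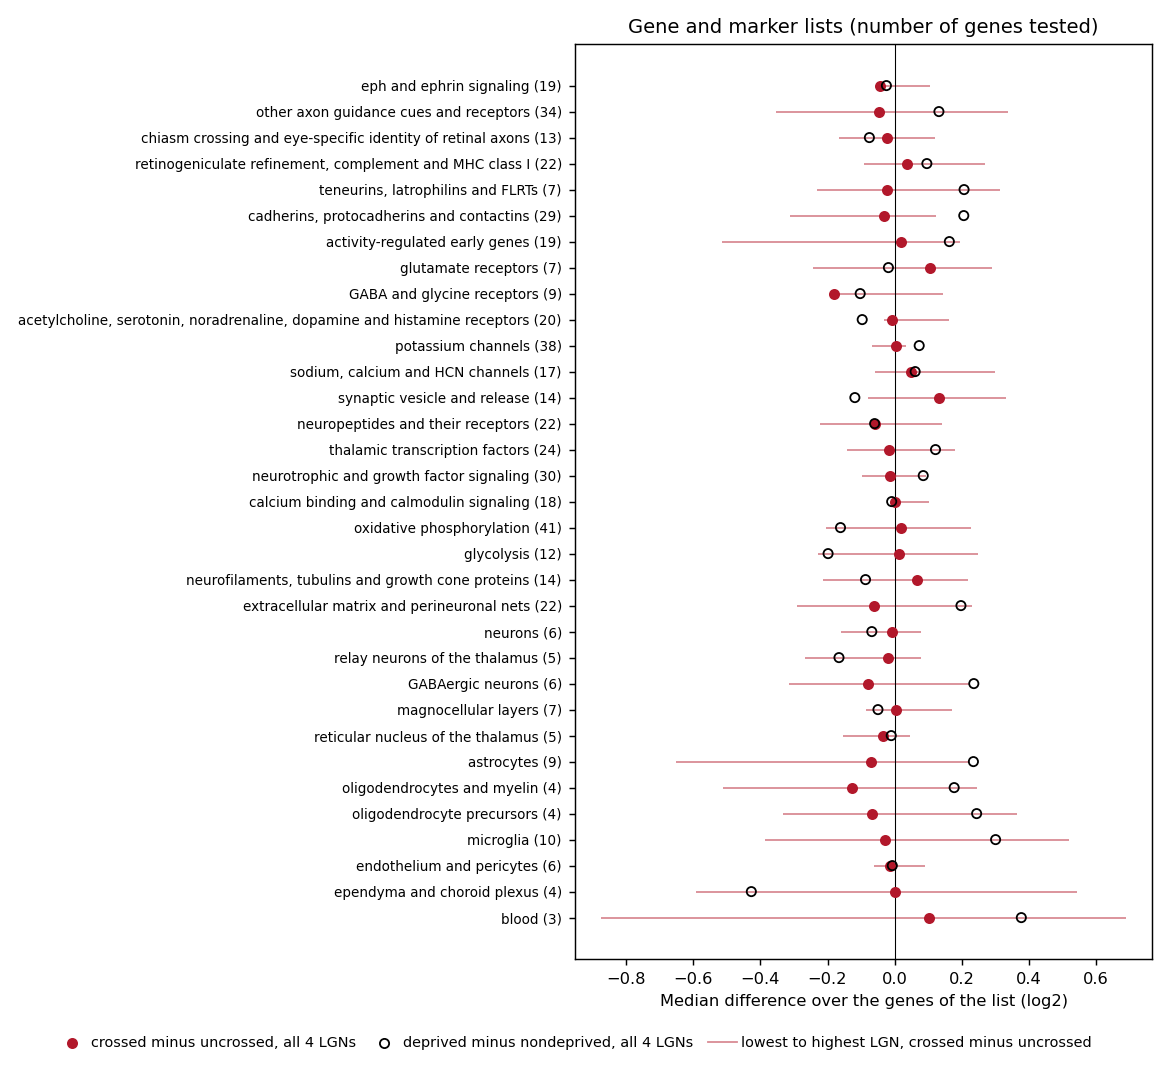
Median log2 difference over the genes of each list with at least 3 genes tested (number in brackets), for crossed minus uncrossed input (filled red points, with a line from the lowest to the highest of the 4 LGNs) and for deprived minus nondeprived layers (open circles). The red points lie between -0.18 and 0.13, and the line crosses 0 in every list shown.

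The summed signals of the cell type markers overlapped between the input groups. TCF7L2, a transcription factor of thalamic relay neurons, was at 25950, 30118 and 39352 in crossed and at 26362, 30398 and 38490 in uncrossed layers. Of 6 neuronal, 5 relay neuron and 7 magnocellular markers, 0 lay under an unadjusted p of 0.05 in limma, and the summed signal of neuronal markers ran from 80833 to 99067 in crossed and from 80627 to 113215 in uncrossed layers. The summed signal of 9 astrocyte markers ran from 58609 to 83455 and from 59050 to 93174, and that of 4 markers of oligodendrocytes and myelin from 51978 to 76182 and from 52955 to 70395. All 4 markers of oligodendrocytes had a lower mean in crossed layers, with a median of -0.13, and the LGNs ranged from -0.51 to 0.24. Of 6 markers of GABAergic neurons, 5 had a lower mean in crossed layers, and 1, NPY, lay under an unadjusted p of 0.05 (limma). Of 4 markers of oligodendrocyte precursors, 2 had a lower mean, and 1, VCAN, lay under it. The medians of these lists were -0.08 and -0.07. Markers of microglia (10 genes) had a median of -0.03 and those of endothelium and pericytes (6 genes) of -0.01. CAMK2A, the koniocellular marker tested, stayed under 100 in all 16 arrays on the probe set read for it here. The paper lists CAMK2A as raised with deprivation on its arrays and by qRT-PCR. Whether it read the same probe set is not known here.

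The input effect was compared between layer pairs, to ask whether the inner and the outer pair gave the same answer. In limma 0 probe sets passed the adjusted threshold for a difference between the pairs, but 3399 (9.03%) lay under 0.05 unadjusted, more than for input itself, with a smallest adjusted p of 0.492. This difference is the outer effect (layer 6 minus 5) less the inner effect (layer 4 minus 3). In log2 it equals the sum of layers 3 and 6 less the sum of layers 4 and 5. As a difference of sums it is larger than the difference of the layer means, and is not on the scale of the input effect. The median of the layer pair difference over all probe sets was 0.11 on the log2 scale, with 1967 of the 3399 positive. Array-wide values moved with the layers: the share of probe sets at 100 or more was 44.0% to 53.0% in layer 3, 41.8% to 52.9% in layer 4, 40.7% to 42.6% in layer 5 and 40.6% to 46.5% in layer 6. Their part in the difference was not tested.

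VEZT, an adherens junction protein, had the smallest p of the genes higher in layers 4 and 5. It ran from 818 to 974 in layer 4 and from 949 to 1156 in layer 5. The ranges were 524 to 744 in layer 3 and 571 to 773 in layer 6. The layer pair difference of VEZT was -1.12 ± 0.22 with an adjusted p of 0.492 (limma). As the genes of this paragraph were chosen by this difference, their values are a description. FAM3C, a secreted protein, had means of 3352 and 3694 in layers 4 and 5 and of 2269 and 2335 in layers 3 and 6. LYRM2, GPBP1L1 and LIN9 had the same order, and the difference of the 5 genes lay between -2.14 and -1.12. In the other direction MIS12, a kinetochore protein, had means of 4102 and 4237 in layers 3 and 6 and of 2959 and 2461 in layers 4 and 5. Its layer pair difference, a difference of sums, was 1.29 ± 0.26. USP5, a deubiquitinase, had means of 545 and 569 in layers 3 and 6 and of 269 and 313 in layers 4 and 5 (1.94 ± 0.42). NIBAN2, VCPIP1 and NBEA lay at 1.63, 1.36 and 0.88.

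For this difference of layer sums, the largest medians among lists of at least 5 genes tested were those of neuropeptides, endothelium and pericytes, microglia and glycolysis. Each was positive in all 4 LGNs. Of 22 genes for neuropeptides and their receptors, 15 (68.2%) were higher in layers 3 and 6, with a median of 0.52, beside 58.2% of all probe sets. Only 11 of these 22 genes had a mean signal of at least 100, and the median ran from 0.02 to 0.62 over the LGNs. Of 12 glycolysis genes, 11 were higher in layers 3 and 6, with a median of 0.39 and a range over LGNs of 0.07 to 0.61. Of 10 microglial markers 9 were higher, with a median of 0.45, and of 6 markers of endothelium and pericytes 5, with a median of 0.45. Of 41 genes of oxidative phosphorylation 31 were higher, with a median of 0.29 that ran from -0.08 to 0.57 over the LGNs. Eph and ephrin genes had a median of 0.30 (12 of 19 higher, 63.2%) and the chiasm list one of -0.10 (5 of 13). The median of all probe sets, 0.11, ran from 0.03 to 0.19.

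**Figure D4:**
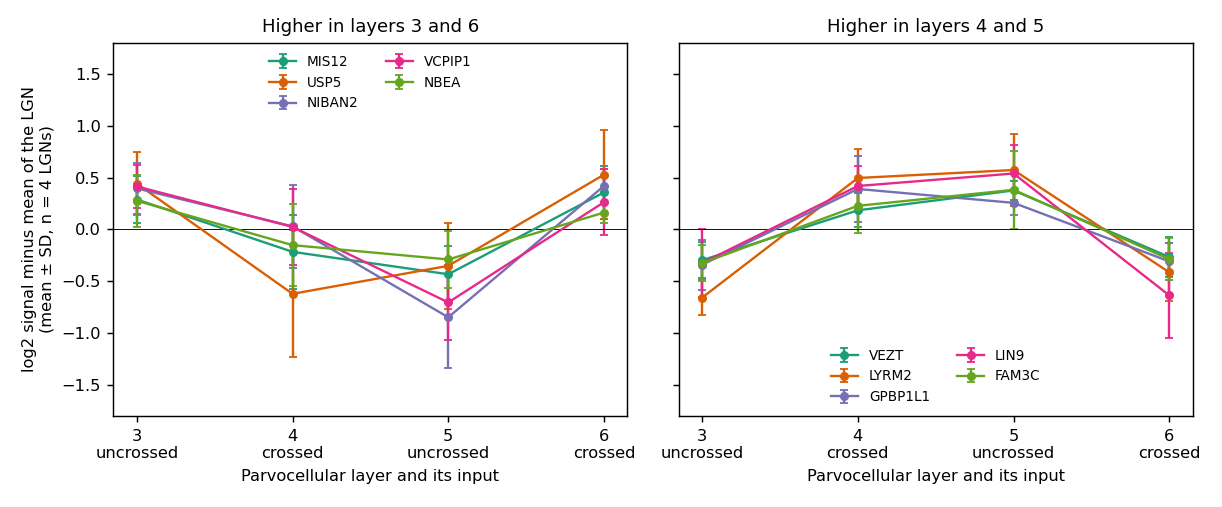
Log2 signal minus the mean of the LGN (vertical axis; mean ± SD, n = 4 LGNs) in layers 3 to 6 for the 5 genes with the smallest p in each direction of the layer pair difference. Genes in the left panel are higher in layers 3 and 6 and genes in the right panel in layers 4 and 5. The genes were chosen for this difference, so that crossed and uncrossed layers do not separate here by choice, which is no result about input.

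The input effect was also compared between animals. The difference of the input effect between animals passed the adjusted threshold in 0 probe sets (1137, or 3.02%, unadjusted; limma). With each animal alone, 680 probe sets (1.81%) lay under an unadjusted p of 0.05 at 2 months and 1283 (3.41%) at 4 months (limma). Of these, 10 were shared in the same direction and 20 in opposite directions. The 10 shared make up 1.47% of the first list and 0.779% of the second. Of the list at 2 months, 43.5% had the same sign at 4 months, beside 48.2% of all probe sets. For deprivation the same reading gave 2848 (7.57%) and 2736 (7.27%) probe sets. Of these, 569 were shared in the same direction (19.98% and 20.80% of the lists) and 21 in opposite directions. Of the deprivation list at 2 months, 76.4% had the same sign at 4 months, beside 55.4% of all probe sets.

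The genes that changed with deprivation were compared between LGN sides, where the deprived layers are crossed (contralateral) or uncrossed (ipsilateral). Over the 353 probe sets the median size of the deprivation effect was 0.65 on the log2 scale and that of the input effect 0.10, and 0 of them had a larger input than deprivation effect. The input effect lay under an unadjusted p of 0.05 in 25 of the 353 (7.08%), beside 2.53% of all probe sets, and under an adjusted p of 0.05 in 0 (limma). Its 95% interval lay within 2-fold for 344 of the 353. As these probe sets were chosen on the effect pooled over the sides and with the same standard errors, these counts and their same sign on both sides are a description.

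ANLN, an actin-binding protein, had the smallest unadjusted p for input of all probe sets, with an adjusted p of 1.00 in limma, and was singled out after its values were seen. It ran from 4601 to 11133 around a median of 6087 in crossed and from 5674 to 14209 around 9111 in uncrossed layers (-0.47 ± 0.10). The crossed layers were lower in both ipsilateral LGNs (-0.98 and -1.18) but at 0.33 and -0.04 in the contralateral LGNs, so that ANLN did not meet the rule for named genes. Its deprivation effect was 0.15 contralaterally and 1.08 ipsilaterally. The 2 other ANLN probe sets gave input effects of -0.36 ± 0.13 and -0.42 ± 0.16.

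FGF11, an intracellular fibroblast growth factor, was nearly equal on the sides. It ran from 277 to 435 in the deprived crossed layers of contralateral LGNs, against 842 to 1468 in their nondeprived layers, and from 180 to 494 in the deprived uncrossed layers of ipsilateral LGNs, against 1028 to 1180. The deprivation effect was -1.76 on each side, the input effect 0.00 ± 0.15. MME, the neprilysin peptidase, had effects of -1.26 and -1.29, CRHBP, which binds corticotropin-releasing hormone, -1.52 and -1.27, ASAH2, a ceramidase, -1.90 and -2.35 (-1.60 ipsilaterally with signals under 50 set to 50), and EPN1, an endocytic adaptor, -1.59 and -1.14 (contralateral and ipsilateral).

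ALDH1A2, which makes retinoic acid, was the 1 probe set of the 353 with a fitted input effect over 2-fold, and this rested on signals under 50. Its deprived layers were at 470 to 1001 on the contralateral and 153 to 1004 on the ipsilateral side, and its nondeprived layers at 44.6 to 496 and at 9.17 to 39.7. The deprivation effect was 2.77 contralaterally and 4.83 ipsilaterally, and the input effect -1.03 ± 0.47 with an adjusted p of 1.00 (limma). With signals under 50 set to 50, the deprivation effects were 2.73 and 3.33 and the input effect -0.30 ± 0.49. TAFA1, a secreted protein of the brain, had deprivation effects of 1.97 and 3.56, BDKRB2, a bradykinin receptor, 1.37 and 2.09, CA12, a carbonic anhydrase, 0.88 and 1.94, and TPM2, a tropomyosin, 1.94 and 1.03. With signals under 50 set to 50 these became 1.97 and 2.79 for TAFA1, 0.86 and 1.49 for BDKRB2, 0.75 and 1.05 for CA12, and 1.35 and 0.92 for TPM2.

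**Figure D5:**
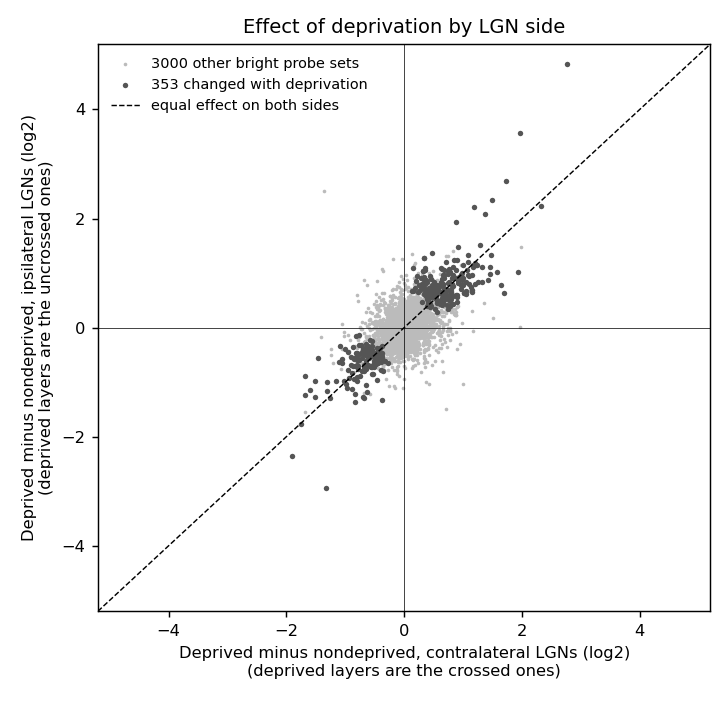
Deprived minus nondeprived log2 difference in contralateral LGNs (horizontal axis) and ipsilateral LGNs (vertical axis) for the 353 probe sets changed with deprivation (dark) and 3000 others with a mean signal of at least 100, drawn at random for display (grey). The input effect is 0.5 times the horizontal minus the vertical value, and it is 0 on the dashed line. All 353 lie in the lower left or upper right, and the point highest on the vertical axis, at 4.83, is ALDH1A2.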

How the data were processed

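Transcripts were measured on the Rhesus Macaque Genome Array, 1 array per layer of both LGNs of 2 monkeys. The deposited values are signal intensities that the authors computed in the array maker's software, GCOS, a linear scale in arbitrary units each array scaled so that its mean after a 2% trim was 500.04. The background of each array and its presence and change calls are not used here. The file holds 52865 probe sets, 99 of them controls. The platform table gives 1 gene symbol for 24956 of the others, several for 361 and none for 27449.

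To be tested, a probe set had to reach 100 on 1 or more of the 24 arrays (37623 did). Signals under 1 were set to 1 before log2. Linear models with LGN, deprivation and input as terms were fitted in R 4.3.3 with limma 3.58.1 (eBayes with trend), adjusted after Benjamini and Hochberg, threshold 0.05, and tested on simulated data. Only 2 animals and 4 LGNs were used, so that p-values measure the spread between these samples. The block rests on the labels, since the layers of an LGN come from 1 animal; crossed and uncrossed layers of an LGN deviated together from their group means (correlation across probe sets of 0.421 to 0.623). No pair of arrays held identical values, and the highest correlation between 2 arrays was 0.949.

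Named genes were the 10 per direction with the largest change past the threshold, or else with the smallest p, that had a single symbol, reached a mean of 100 where they were higher and kept 1 direction over all 4 LGNs, at most 5 per direction for other comparisons, and up to 3 per gene list. A gene was named by the probe set that ranked first; in lists its brightest probe set, by mean log2 signal, stood for it. Members and lists were chosen with earlier results of these data known. Alternatives were other normalizations, floors, filters, blocks and terms, each array left out and each animal or layer pair alone. Of 738 listed genes 516 were on the array by symbol and 464 were tested. The number of arrays limits the precision.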

Additional observations from a re-analysis of the deposited data

Results flagged for a closer look

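Signals of the named genes and array-wide values were searched for single arrays far from the rest of their group, with Dixon's ratio of the gap to the range. Of 76 groups 4 stood out, where chance gives about 1 in 20. CIMIP2B was at 319 in layer 3 of the contralateral LGN at 2 months, against 129 in the next of the uncrossed arrays (ratio 0.581). NPY was at 121 in layer 6 of the contralateral LGN at 4 months, against 18.5 in the next crossed array (0.574), and at 1457 in layer 3 of the ipsilateral LGN at 4 months, against 71.9 in the next uncrossed array (0.533). The share of probe sets at 100 or more was 53.0% in layer 3 of the contralateral LGN at 2 months, against 46.5% in the next uncrossed array (0.533).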

How the results depend on the processing

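The count of 0 for crossed against uncrossed input held under all 34 alternatives, as did that for the differences between animals and between layer pairs under 23 each. With no replicate block (the animal in place of the LGN) it was 0 adjusted and 802 unadjusted. Unadjusted input counts moved from 951 to 541 with a mean signal of at least 100, 598 with all 24 arrays in one fit, 1558 with no filter, 2767 with the inner and 3216 with the outer pair alone. Chosen after seeing the data were the layer pair and its interaction as terms (1095), leaving out layers 3 and 4 of the contralateral LGN at 2 months (949) and the magnocellular fit without layer 2 of the ipsilateral LGN at 2 months. The fold rule gave 7 with signals under 50 set to 50, 25 with a mean of at least 100, 61 with 8 of 8 ratios, and 626 to 792 with an array and its pair left out, when 6 of 7 ratios had to agree (lowest without layers 5 and 6 of the ipsilateral LGN at 2 months). Adjusted magnocellular counts ran from 0 to 178 with an array left out: 177 and 178 came without layer 1 or layer 2 of the contralateral LGN at 4 months, where the effect rests on 3 LGNs. Unadjusted magnocellular counts ran from 372 without layer 2 of the contralateral LGN at 2 months to 3462 without layer 1 of the ipsilateral LGN at 4 months. The unadjusted count for the difference between animals rose from 1137 to 1746 and 1986 without layer 3 or layer 4 of the contralateral LGN at 2 months. The deprivation count of 353 became 17 with the same median, 1 without the trend, 230 with signals under 50 set to 50, 105 with all 24 arrays, 4 and 0 in the animals at 2 and 4 months, 34 and 0 in the inner and outer pair, and 23 without layers 3 and 4 of the contralateral LGN at 2 months. With an array left out it ran from 109 (layer 4 of the contralateral LGN at 2 months) to 449, and it moved by less than 1.5 times only without layer 3 of the ipsilateral or layer 6 of the contralateral LGN at 2 months or layers 4 of either LGN or 5 of the contralateral LGN at 4 months. The cause was not tested. The 10 genes named for deprivation, from FGF11 to TPM2, kept their direction but lost the threshold in 109 of 327 alternative values. The 32 named genes with the smallest p kept their direction under every alternative, 20 of them chosen for 1 direction in all LGNs. Of 86 other list genes, 2 changed sign with the floor of 50 and 18 in the inner pair alone.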
